A study of Mus musculus with 12 samples.

Results

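The interferon regulatory factors measured here were the 8 genes Irf1, Irf2, Irf3, Irf4, Irf5, Irf7, Irf8 and Irf9, found by their symbols among the 26938 genes with at least 1 transcript count in the data. They were counted by droplet sequencing of the 5′ ends of transcripts in 93126 single cells of 48 MC38 tumors, a mouse colon carcinoma line implanted under the skin of female hosts aged 8 to 12 weeks. Hosts were C57BL/6J (B6) mice or CCF1 mice, the F1 offspring of C57BL/6J and a Collaborative Cross (CC) strain: CC001/UncJ, CC002/UncJ, CC007/UncJ, CC036/UncJ, CC075/UncJ, CC079/TauUncJ or CC080/TauUncJ, each named below by its number. Every host received 200 µg of an isotype control antibody (2A3) or of aPD1, which blocks the PD-1 receptor of T cells (29F.1A12), and the tumor was taken after 48 h and sorted to 90% CD45+ and 10% CD45- cells. All groups thus carried the same tumor line and at least a B6 haplotype, and no group was without antibody.

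The study classed CC001, CC002 and CC075 as responder strains and CC036, CC079 and CC080 as non-responder strains from tumor growth in other animals. There were 10 responder isotype, 10 responder aPD1, 9 non-responder isotype and 9 non-responder aPD1 tumors, and B6 and CC007 hosts (5 isotype and 5 aPD1 tumors) stood in no class. Tumors were hashtagged and pooled by 4 into 12 libraries. CC079 stood in pools 1, 2 and 5, CC036 in pools 8, 9 and 10 and CC075 in pools 9, 10 and 11. Pools 1 to 6 and pools 7 to 12 were compared as blocks of library numbers, for which no date is given. Isotype and aPD1 tumors never shared a hashtag, so a hashtag effect and a treatment effect cannot be told apart. There were 4990 cell barcodes that stood in more than 1 library (10.927% of cells), and 1 animal identifier stood on 2 CC080 tumors. Without these tumors the Irf8 difference in macrophages given further on was 0.34 (adjusted p 0.00577). A tumor gave 53 to 3082 cells and 88816 to 17713491 unique molecular identifiers (UMIs, 1 per captured transcript), and the median cell had 3333.5 UMIs. Levels are CPM, the UMIs of a gene in summed cells scaled to the same total. They compare a gene between cell groups or tumors, never 1 gene with another, since the 5′ counts are not per length.

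Interferon regulatory factors are transcription factors with a shared DNA binding domain that reads GAAA repeats in the promoters of interferon and interferon-inducible genes. Irf3 and Irf7 switch on the interferon genes themselves after nucleic acids are sensed, Irf5 acts below Toll-like receptors, and Irf9 is the DNA binding part of the complex ISGF3 that answers type I interferon. Irf1 is induced by interferon gamma (IFN-γ) and drives antigen presentation genes, Irf2 competes with it for the same sites, and Irf4 and Irf8 bind with partners such as Spi1 and Batf and set the fates of lymphoid and myeloid cells.

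Promoters of many genes induced by IFN-γ hold gamma activated sites, for which the letters TTCNNNGAA (the same on both strands) were searched in the 250 bases before each annotated start (RefSeq, GRCm38.p6). All 8 genes had such a window, some of them several, and 3 of their 11 windows held a match, against 2306 of all 32851 windows (7.02%). The 3 promoters are printed because the levels of Irf1 and Irf8 are set beside those of Ifng further on, and Irf2 shares the motif. They are on the plus strand, end at the base before the gene, and have the matches in capitals.
Irf1, chr11:53769764-53770013: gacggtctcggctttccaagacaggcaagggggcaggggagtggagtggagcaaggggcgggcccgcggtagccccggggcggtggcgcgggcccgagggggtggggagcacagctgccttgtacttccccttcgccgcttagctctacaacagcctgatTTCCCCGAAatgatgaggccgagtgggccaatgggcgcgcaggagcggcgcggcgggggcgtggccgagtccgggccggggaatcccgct
Irf8, chr8:120736108-120736357: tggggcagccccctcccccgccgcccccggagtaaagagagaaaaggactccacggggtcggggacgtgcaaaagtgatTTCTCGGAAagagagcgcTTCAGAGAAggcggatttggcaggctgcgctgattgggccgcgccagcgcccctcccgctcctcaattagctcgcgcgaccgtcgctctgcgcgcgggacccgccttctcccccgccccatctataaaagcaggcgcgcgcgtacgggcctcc
Irf2, chr8:46739495-46739744: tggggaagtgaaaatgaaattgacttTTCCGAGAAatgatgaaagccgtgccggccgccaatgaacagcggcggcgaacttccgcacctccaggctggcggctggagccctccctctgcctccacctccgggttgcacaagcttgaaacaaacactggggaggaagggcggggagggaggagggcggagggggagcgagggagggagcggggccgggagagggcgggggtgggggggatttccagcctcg

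The match began at position -90 from the start in Irf1, at -171 and -153 in Irf8 and at -224 in Irf2. The interferon stimulated response element (GAAA, any 2 bases, GAAA), the motif that ISGF3 and other family members read, was searched on both strands too. It lay in 978 windows (2.98%) and, among the 8 genes, only in Irf2 at -241, where it overlapped the Ets IRF composite element (GGAA, any base, TGAAA) at -247, found in 195 windows (0.594%). These letters are descriptions of the sequence and do not show binding. The genes themselves lie apart: Irf1 at chr11:53770014-53778374, Irf2 at chr8:46739745-46847458, Irf3 at chr7:44997648-45002848, Irf4 at chr13:30749233-30766981, Irf5 at chr6:29526130-29541869, Irf7 at chr7:141263183-141266499, Irf8 at chr8:120736358-120756694 and Irf9 at chr14:55603985-55610030.

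The study's 27 cell clusters were named from marker genes: 10 were monocyte/macrophage, called macrophage below (73.083% of cells), 9 T/NK (12.908%), and 1 each cDC2 (5.349%), migratory dendritic cells (migDC, 1.636%), cDC1 (1.409%), plasmacytoid dendritic cells (pDC, 0.492%), granulocytic cells and fibroblasts, with clusters 20 and 25 unnamed (3.93%). Cluster 5, named macrophage, and T/NK cluster 12 also held immunoglobulin, hemoglobin or, in cluster 12, macrophage transcripts. The pDC cluster 18 held immunoglobulin and other B cell transcripts. Cluster 4 was led by Ace, Adgre4, Ifitm6, Hp, Chil3 and Vcan, genes of monocytes. Its monocyte/macrophage markers lay below those of the other cells (median log2 ratio -0.54, 7 of 9 at 100 CPM) and its granulocytic markers above (0.61, 1 of 6 at 100 CPM). Clusters were made from these same counts, so levels by cluster are a description without a test.

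Irf4 and Irf8, the pair with lineage roles, stood highest in different cells. Irf8, which cDC1 and pDC need to form or function, stood at 1437 CPM in pDC (median of 6 tumors 1675) and 1165 CPM in cDC1 (lowest tumor 764, median 1135, highest 1460; 27 tumors). migDC followed at 599.6 CPM (lowest tumor 277, median 561, highest 984; 39 tumors), then the Ifng, Il2 and Xcl1 rich T/NK cluster 13 (419 CPM) and the NK cluster 24 (373 CPM). The quartiles of the tumors did not overlap between pDC and cDC1, between cDC1 and migDC, or between migDC and cluster 13. cDC1 held 2.359% of all UMIs and 15.414% of the Irf8 UMIs, while macrophages held 72.676% of all UMIs and 63.541% of the Irf8 UMIs. cDC2, which depend on Irf4 rather than Irf8, had 82.9 CPM of Irf8.

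Irf4, induced by antigen receptor signaling in T cells, was at 347 CPM in T/NK cluster 13 (lowest tumor 219, median 312, highest 755; 9 tumors). Next stood cluster 10, with Cd4, Il4 and Il13 among its leading genes (122 CPM), and CTL cluster 3, with Cd8a, Pdcd1 and Lag3 (115 CPM), and the quartiles of these 2 overlapped each other but not those of cluster 13. T/NK cells held 8.113% of all UMIs and 44.746% of the Irf4 UMIs. Among dendritic cells, Irf4 was at 65.7 CPM in pDC, 55.8 CPM in cDC2, 41.3 CPM in migDC and 2.15 CPM in cDC1. Irf8 ran the other way over cDC2, migDC and cDC1, while pDC were highest in both by summed counts. By the median over tumors, Irf4 was at 47.1 CPM in pDC (6 tumors) and 53.3 CPM in cDC2 (44 tumors). The 6 B cell markers summed to 2739 CPM in the pDC cluster, and the part of B cell transcripts in its Irf4 level was not tested. In 9 of the 10 macrophage clusters Irf4 was below 15 CPM.

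Irf7, the amplifier of type I interferon production, peaked in macrophage cluster 21, whose leading genes were the interferon-inducible Ifit1, Ifit2, Ifit3, Rsad2 and Cmpk2. There it stood at 672 CPM (lowest tumor 399, median 653, highest 991; 45 tumors), and pDC came next at 209 CPM. The lowest tumor of cluster 21 was above the highest pDC tumor (369 CPM). T/NK cluster 13, high in Irf4 and Irf8, was the lowest in Irf7 at 7.67 CPM.

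Irf5 was highest in cDC1 at 273 CPM, followed by the monocyte cluster 4 at 219 CPM and migDC at 199.8 CPM, against 3.58 CPM in T/NK cluster 13, with 80.267% of its UMIs in macrophages, which held 72.676% of all UMIs. Irf1 was highest in granulocytic cluster 16 (672 CPM; 7 tumors between 199.9 and 1809, of shallow cells with a median of 815 UMIs) and in cluster 4, led by monocyte genes (434 CPM; median 433 over 44 tumors), whose quartiles overlapped. Irf2 was highest in macrophage cluster 19 (342 CPM; median 340.1), also of shallow cells (median 1225 UMIs), whose leading genes held noncoding transcripts such as Mir99ahg. Irf3, which is activated by phosphorylation, ran from 14.9 CPM (macrophage cluster 27) to 45.8 CPM (T/NK cluster 1), the narrowest range of the 8 genes as a ratio, and Irf9 from 12.9 CPM (unnamed cluster 20) to 88.9 CPM (granulocytic cluster 16).

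**Figure D1:**
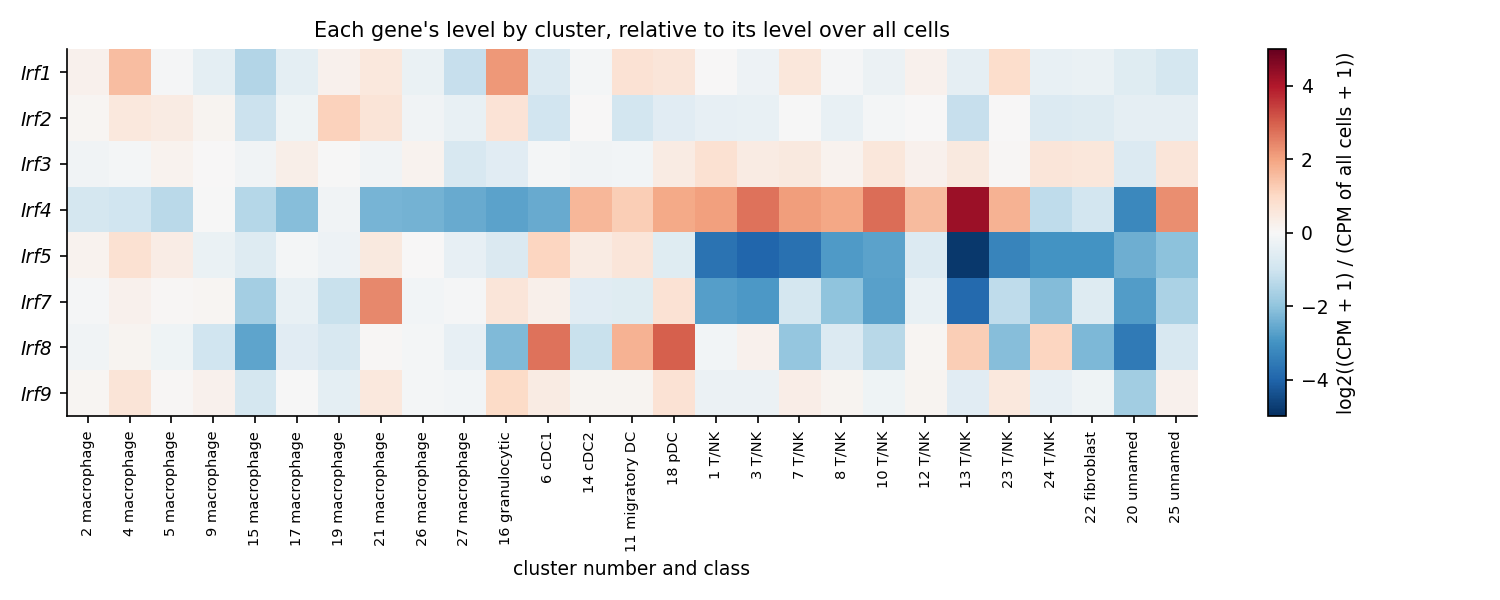
Level of each of the 8 genes (rows) in the 27 clusters (columns, by number and class) as the log2 ratio of CPM + 1 to the CPM + 1 of all cells; red is above and blue below the gene's own level over all cells. Irf8 is reddest in pDC cluster 18 (1437 CPM) and cDC1 cluster 6 (1165 CPM), Irf4 in T/NK cluster 13 (347 CPM) and Irf7 in macrophage cluster 21 (672 CPM).

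Across the 27 clusters, which share libraries and depth, the closest pair of the family was Irf5 and Irf7 (Pearson r = 0.762 on log2(CPM + 10)), followed by Irf7 and Irf9 (0.672) and Irf1 and Irf9 (0.66), and the most opposed was Irf4 and Irf5 (-0.597). The 3 genes most like Irf7 were Tor3a (0.891), Stat2 (0.887) and Tor1aip1 (0.885), Stat2 being the partner of Irf9 in ISGF3. Irf5 ran with Rp2 (0.947), Ifi30 (0.947) and Aif1 (0.94), the last a gene of macrophages. Irf4 ran with Slamf1 (0.852), a receptor of activated lymphocytes, Gm8369 (0.816) and Arap2 (0.81), and Irf1 with Birc3 (0.83), Pde4b (0.823) and Taf7 (0.822). For Irf2 these genes were Atg7 (0.865), Slfn8 (0.857) and Map3k15 (0.852), for Irf3 Prrc2a (0.869), AA465934 (0.83) and Zc3h4 (0.808), for Irf9 Cmtm6 (0.882), Hnrnph2 (0.833) and BC005624 (0.816). The pattern of Irf8 was the least shared, with 0.745 for 6530409C15Rik, 0.72 for BC035044 and 0.714 for Zmiz2.

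The study compared the tumor immune microenvironment (TIME) of responder and non-responder strains. In macrophages, Irf8 was higher in responder than in non-responder strains, and no other member passed the test. Its level in non-responder tumors was 119 CPM at the lowest, 132 at the median and 209.8 at the highest under isotype, and 101, 135 and 159 under aPD1. In responder tumors it was 141, 153 and 230.1 CPM under isotype and 146, 181 and 209 under aPD1. All 20 responder tumors were above the non-responder median of their treatment, but the ranges overlapped, with 1 of 10 isotype and 7 of 10 aPD1 responder tumors above every non-responder tumor. The difference was 0.33 ± 0.08 on the log2 scale (SE, 20 against 18 tumors), or 1.26-fold, with an adjusted p of 0.00427 (edgeR quasi-likelihood test over 11873 genes, Benjamini-Hochberg). In this comparison 779 genes (6.56%) passed, and 1 call among 8 members is to be read against that share.

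Summed over macrophage clusters 2, 5 and 26 alone, the Irf8 difference was 0.32 (adjusted p 0.00209), and the other macrophage clusters gave 0.28 (adjusted p 0.242). Without CC079, the strain of lowest Irf8, it was 0.25 (adjusted p 0.0614), and pools 1 to 6 alone gave 0.28 (adjusted p 0.187) and pools 7 to 12 alone 0.38 (adjusted p 0.0553). Taking strains as the unit, the responder strain means ran from 162.9 to 180.2 CPM and the non-responder means from 123.6 to 149.96 CPM without overlap. The exact permutation test on 3 against 3 strain means gave its smallest possible p, 0.1. Markers of cDC1, the cells richest in Irf8 beside pDC, were also summed in macrophages. Their median was 203.59 CPM (98.09 to 302.92) in responder and 136.97 CPM (95.51 to 269.39) in non-responder tumors. Of these 5 markers none was at 0, and only Cadm1 reached 100 CPM (131.1 against 80.86 CPM). It differed most in CPM, but its level in cDC1 was only 141 CPM, so the sum does not count cDC1 alone. Xcr1 was at 1.17 against 0.37 CPM and Clec9a at 9.49 against 3.12 CPM (cDC1 had 196.7 and 270.7 CPM). Tlr3 was at 10.91 against 8.58 CPM (cDC1 159.1 CPM). Wdfy4 went the other way, at 58.54 against 67.16 CPM (cDC1 1089.4 CPM). The part of cDC1 in the Irf8 difference was not tested.

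**Figure D2:**
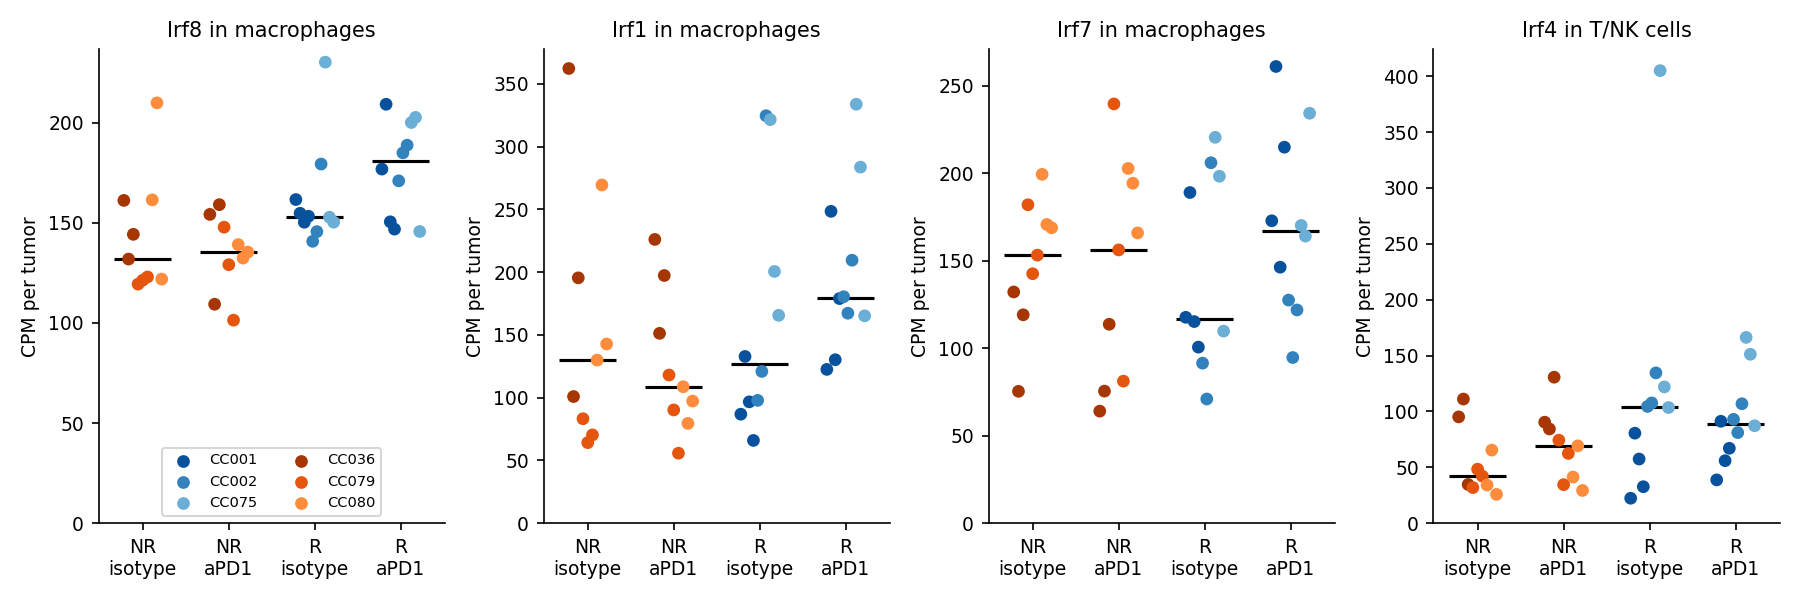
CPM per tumor (y axis, from 0) of Irf8, Irf1 and Irf7 in summed macrophages and of Irf4 in summed T/NK cells, for non-responder (NR) and responder (R) strains under isotype or aPD1; each point is a tumor colored by host strain and each bar is a median. Macrophage Irf8 of all responder tumors lies above the non-responder median of its treatment, and 1 CC075 tumor stands at 405 CPM of Irf4 in T/NK cells.

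Irf1, the activator of antigen presentation, spread widely within both classes of macrophage samples. Non-responder tumors had 64.2, 129.9 and 362 CPM under isotype and 55.7, 109 and 226 CPM under aPD1 (lowest, median, highest), and responder tumors 65.9, 127 and 325 CPM under isotype and 123, 179.7 and 334 CPM under aPD1. The groups overlapped under isotype, and under aPD1 3 of 10 responder tumors were above every non-responder tumor. The class difference was 0.40 ± 0.22 (log2), with an adjusted p of 0.319 (edgeR). It moved with single strains: without CC036, a non-responder strain with high Irf1, it was 0.76 (adjusted p 0.0401), and without CC079 0.13 (adjusted p 0.816).

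Irf7 stood at 75.3, 153 and 199 CPM in non-responder and 70.9, 116 and 220.4 CPM in responder isotype tumors, and at 64.0, 156 and 239.5 CPM against 94.6, 167 and 261 CPM under aPD1. These groups overlapped, and the class difference was 0.12 ± 0.17 (adjusted p 0.755). Irf4 was low in macrophages, with medians of 8.02 and 5.56 CPM in non-responder and 4.01 and 3.54 CPM in responder tumors (isotype and aPD1), and differed by -0.68 ± 0.28 (adjusted p 0.146). It passed with a term for pools 1 to 6 against 7 to 12 (-0.72, adjusted p 0.0482) and without CC075 (-0.99, adjusted p 0.0265), and was -0.39 without CC036 (adjusted p 0.435) and -0.42 without CC001 (adjusted p 0.448). Irf2, Irf3, Irf5 and Irf9 differed by at most 0.09 ± 0.08 (Irf2, adjusted p 0.636).

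Genes acting above and below the family were counted by lists, whose median differences are given beside that of all genes (-0.0045). Of 12 tested IFN-γ and Irf1 target genes 5 were higher and 0 lower in responder macrophages, all 12 had a positive difference, and the median was 0.48. Of all 11873 genes 4.1% were higher and 2.46% lower, that is 487 against 292 genes, which turned to 339 against 529 when scaled by library size alone (Irf8 then 0.29, adjusted p 0.0124). The 5 were Il18bp, a secreted inhibitor of interleukin 18 (1.13 ± 0.20, adjusted p 0.000221), the T cell attracting chemokine Cxcl9 (1.16 ± 0.23, adjusted p 0.00144), the immunoproteasome subunits Psmb8 (0.45 ± 0.10, adjusted p 0.00256) and Psmb9, and the peptide transporter Tap1. Of 12 ISGF3 targets only Ifi44 was higher (1.78 ± 0.37, adjusted p 0.00202; list median 0.06). None of 11 interferon receptor and JAK-STAT genes (median 0.09), 12 sensor adaptors and kinases (0.09) or 9 partners of Irf4 and Irf8 (0.06) passed.

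Treatment was compared within each class, between tumors taken 48 h after a single dose. In responder macrophages 0 of 11873 genes passed (0%) with edgeR and 0 with DESeq2, and 821 had an unadjusted p under 0.05, none of them a member. Irf1 differed by 0.42 ± 0.31, Irf7 by 0.34 ± 0.23 and Irf8 by 0.20 ± 0.10 (aPD1 over isotype; smallest adjusted p of the family 0.746, Irf8). In non-responder macrophages 0 genes passed (0%) with edgeR and 1 with DESeq2, 91 had an unadjusted p under 0.05, and all 8 members had a negative difference, from -0.41 for Irf4 and -0.33 for Irf1 to -0.07 for Irf7, with -0.11 for Irf8 (adjusted p 1). These differences do not exceed the spread between tumors. The gene lists leaned the same way, with 1 of 12 ISGF3 targets and 0 of 12 IFN-γ and Irf1 targets positive in non-responder macrophages. Positive there were also 1 of 11 receptor and JAK-STAT genes, 1 of 9 partners and 3 of 12 sensor adaptors and kinases. The median of all genes was -0.0056.

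The difference between these 2 treatment effects was tested as an interaction, with 0 of 11873 genes passing (0%) in edgeR, 1 in DESeq2 and 680 at an unadjusted p under 0.05. It was 0.75 ± 0.44 for Irf1, 0.30 ± 0.15 for Irf8 and 0.41 ± 0.34 for Irf7, positive for 7 of the 8 members, with an adjusted p of 0.868 for Irf1 and Irf8 and 0.898 for Irf7. A changed response of the family to aPD1 between the classes was thus not detected with these tumors. The positive sign was not particular to the family. It was shared by 12 of 12 ISGF3 targets, 12 of 12 IFN-γ and Irf1 targets and 11 of 11 receptor and JAK-STAT genes. The same held for 9 of 9 partners and 8 of 12 sensor adaptors and kinases (median of all genes 0.0117). The 12 IFN-γ and Irf1 targets had a median of 0.37 in responder and -0.22 in non-responder macrophages, and 0 of them passed in either.

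In T/NK cells, where Irf4 supports the activated state, no member passed between the classes, of 7219 genes tested with 161 passing (2.23%; 67 higher and 94 lower, or 49 and 145 when scaled by library size alone). With edgeR 4 of 8 members and 1048 of the 7219 genes had an unadjusted p under 0.05, and DESeq2 called 1 member and 290 of 12397 genes. Irf4 stood at 25.7, 42.1 and 111 CPM in non-responder and 22.3, 104 and 405 CPM in responder isotype tumors (lowest, median, highest), and at 29.3, 69.2 and 131 CPM against 38.7, 89.2 and 166 CPM under aPD1. Responder tumors exceeded the non-responder median in 8 of 10 under isotype and 7 of 10 under aPD1, and the ranges overlapped.

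The Irf4 difference in T/NK cells was 0.84 ± 0.25 on the log2 scale, or 1.79-fold, with an adjusted p of 0.0663 by edgeR. With the pool as a block it was 0.95 (adjusted p 0.00315, with 301 genes passing in that fit), and with DESeq2 0.84 (adjusted p 0.0441). It moved with single strains: without CC075, whose isotype tumor of pool 9 held the 405 CPM, it was 0.39 (adjusted p 0.347), and without that tumor alone 0.59 (adjusted p 0.14). Without CC001 it was 1.21 (adjusted p 0.00123) and without CC036 1.23 (adjusted p 0.0103). The makeup of the T/NK cells moved with this value. Cluster 13, the highest in Irf4, made up a median of 7.31% of a tumor's T/NK cells in responders and 1.89% in non-responders under isotype (5.33% and 2.88% under aPD1), and CTL cluster 3 at 35.24% and 10.61% (29.11% and 8.96%). The part of this makeup in the Irf4 difference of the T/NK sums was not tested beyond cluster 3 alone, given next. Strain means overlapped, 55.7 to 172.5 CPM against 44.2 to 91.0 CPM (exact permutation p 0.2). In CTL cluster 3, 19 responder and 6 non-responder tumors gave 0.76 ± 0.50 for Irf4 (adjusted p 0.611) and 0.33 ± 0.20 for Irf8 (adjusted p 0.582), with 0 of 5 tested members and 22 of 4732 genes passing (0.465%; 9 higher and 13 lower, or 6 and 15 when scaled by library size alone). None of the 5 had an unadjusted p under 0.05. None of the 6 non-responder tumors was from CC079, and the 4 left without CC036 were all from CC080. DESeq2 gave an adjusted p there for only 849 genes and 1 member, Irf8 (0.435).

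Irf8 in T/NK cells was at 109, 142 and 229 CPM in non-responder and 121, 176 and 358 CPM in responder isotype tumors, and at 79.8, 154 and 247.6 CPM against 118, 200.1 and 306 CPM under aPD1. The groups overlapped and the difference of 0.35 ± 0.13 had an adjusted p of 0.145, close in size to that of macrophages. Strain means did not overlap (167.9 to 230.9 CPM against 151.9 to 163.3 CPM; exact permutation p 0.1, the smallest possible). Irf8 was at 419 CPM in cluster 13, 373 CPM in NK cluster 24, 209 CPM in CTL cluster 3 and 46.3 CPM in cluster 7. Unlike clusters 13 and 3, cluster 24 had a lower median share in responders, 5.67% against 15.38% under isotype (8.38% against 10.19% under aPD1). The part of this makeup in the Irf8 difference was not tested. Irf7 was lower in responder strains, with medians of 39.2 and 47.9 CPM in non-responder and 25.5 and 33.2 CPM in responder tumors (isotype and aPD1). Its difference was -0.64 ± 0.22, with an adjusted p of 0.118 that became 0.00854 without CC036 (-0.92) and 0.373 without CC079 (-0.39). Irf5 differed by -0.57 ± 0.23 (adjusted p 0.209, and 0.0185 with the pool as a block). It was -0.90 without CC036 (adjusted p 0.00722), -0.86 without CC002 (0.109) and -0.25 without CC079 (0.641). Irf7 also differed between T/NK clusters, at 69.5 CPM in cluster 7 and 16.7 CPM in CTL cluster 3. Cluster 7 had a median share of 16.11% in responders and 28.35% in non-responders under isotype (19.95% and 27.51% under aPD1). Within CTL cluster 3, Irf7 medians were 16.7 CPM in responder and 7.68 CPM in non-responder tumors, and in regulatory T cells 23.3 and 22.3 CPM. The part of this makeup in the Irf7 difference was not tested.

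Summed macrophage markers in T/NK cells, where Irf5 and Irf7 were both at low levels, had a median of 614.92 CPM (150.3 to 1738.28) in responder and 767.46 CPM (178.22 to 4084.97) in non-responder tumors. Of these 9 markers 3 reached 100 CPM in both classes and none was at 0. Without T/NK cluster 12, which held macrophage transcripts, 7 members were tested (Irf5 was not), 3 had an unadjusted p under 0.05 and 0 passed (993 and 157 of 6840 genes), and Irf7 differed by -0.52 (adjusted p 0.247) and Irf4 by 0.83 (adjusted p 0.0618). The other members differed by at most 0.10 in size (Irf9, -0.10 ± 0.11). The 8 tested ISGF3 targets all had a negative difference in T/NK cells with a median of -0.48 (all genes -0.0087), and 0 passed. Of the partners of Irf4 and Irf8, 1 of 8 passed (of all genes 0.928% were higher and 1.3% lower), Tcf4, a factor of pDC and resting lymphocytes (-0.72 ± 0.15, adjusted p 0.00253). The 6 B cell markers in T/NK cells summed to a median of 55.84 CPM (10.52 to 106.37) in responder and 83.57 CPM (40.63 to 210.44) in non-responder tumors, none at 0 and none at 100 CPM, and their part in this was not tested. aPD1 in responder T/NK cells moved 0 of 7219 genes past the threshold (0%) by edgeR and by DESeq2, and 215 had an unadjusted p under 0.05, none a member. Irf7 had 0.56 ± 0.31, Irf9 0.27 ± 0.14 and Irf4 -0.32 ± 0.32, the last becoming 0.20 without the CC075 isotype tumor of pool 9 (adjusted p 0.9995 for each with all tumors).

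Dendritic cells were fewer. In cDC1 (11 responder and 13 non-responder tumors with at least 20 cells), Irf8 was at 955, 1153 and 1286 CPM in non-responder and, over 5 tumors, 1107 to 1383 CPM in responder isotype tumors, and at 764 to 1129 CPM (5 tumors) against 1035, 1265 and 1460 CPM under aPD1. The classes overlapped under both treatments. The difference was 0.22 ± 0.08 with an adjusted p of 0.345, 20 of 4423 genes passed (0.452%), and none of 6 tested members did in edgeR or DESeq2, with only Irf8 at an unadjusted p under 0.05 (0.00833). Irf1 had 0.25 ± 0.22 (adjusted p 0.835) there, a sign that turned when tumors with 10 or more cells were used.

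In migDC (15 against 17 tumors, 16 of 3065 genes passing, 0.522%), 0 of 7 tested members passed with edgeR or DESeq2, and 3 had an unadjusted p under 0.05, as did 257 of the 3065 genes. Irf4 had -0.99 ± 0.34 (adjusted p 0.28), Irf7 -0.89 ± 0.35 (adjusted p 0.393) and Irf5 0.38 ± 0.17 (adjusted p 0.474). Irf7 there passed without the filter on low counts (adjusted p 0.00377) and without CC036 (-1.38, adjusted p 0.00433), and was -0.32 without CC080 (adjusted p 0.866). Irf4 in responder strains was thus lower in migDC and higher in T/NK cells by the estimates, and neither passed. In regulatory T cells (15 against 15 tumors, 4 of 3233 genes passing, 0.124%) 4 members were tested, with none passing in edgeR or DESeq2 or at an unadjusted p under 0.05 (adjusted p 0.937 to 0.982).

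**Figure D3:**
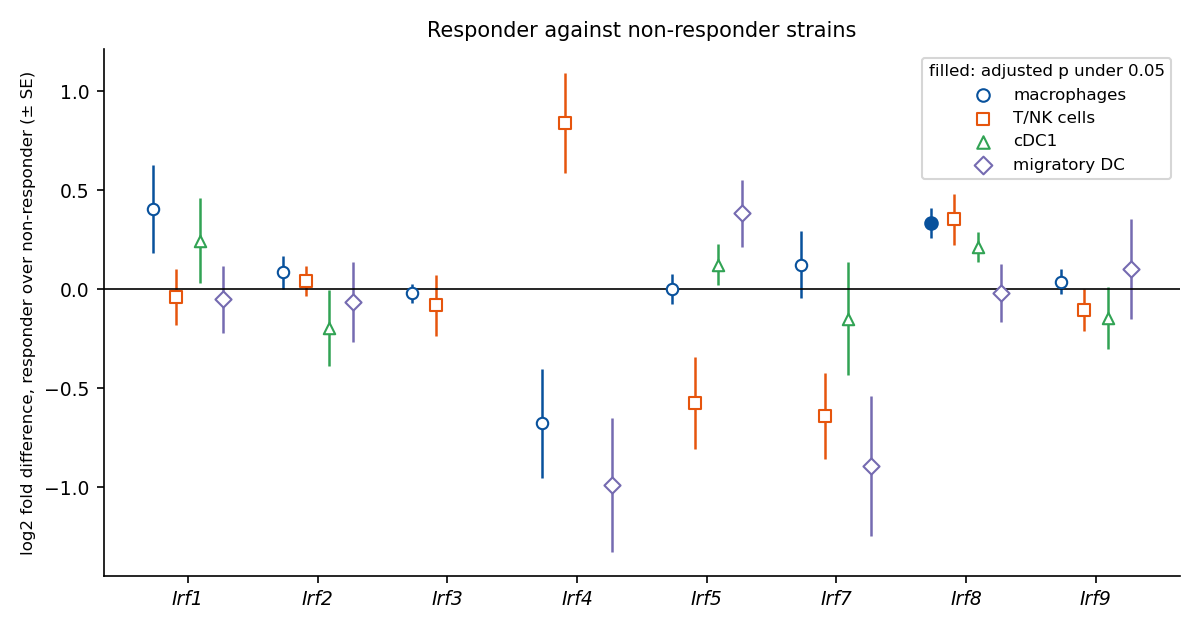
Log2 fold difference between responder and non-responder strains (y axis, bars are ± SE) of each member in macrophages, T/NK cells, cDC1 and migDC; filled symbols have an adjusted p under 0.05 and members not tested in a cell type are absent. Only Irf8 in macrophages (0.33) is filled, and the Irf4 values of T/NK cells (0.84) and migDC (-0.99) stand on opposite sides of 0.

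Levels were also compared over all hosts. An F test over the 8 hosts in macrophages (48 tumors) passed 6464 of 12510 genes (51.7%), and 4 of 8 members: Irf1 (adjusted p 0.00073), Irf7 (0.00583), Irf8 (0.00914) and Irf4 (0.0366). That share is near the background. Here and in T/NK cells, the highest and lowest strains of a gene were picked from these same values. Whether they overlap is thus a description and not a test. Irf1 had its highest strain mean in CC075, at 165 CPM at the lowest, 242 at the median and 334 at the highest, and its lowest mean in CC079, at 55.7, 76.8 and 118 CPM, and these 2 strains did not overlap. The non-responder strain CC036 had 101, 196 and 362 CPM, and so overlapped CC075.

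Irf7 in macrophages was lowest in CC036 (64.0, 94.5 and 132 CPM) and highest in another non-responder strain, CC080 (166, 182 and 203 CPM), again without overlap. The mean of CC080, 183.6 CPM, was near the highest responder strain mean, 182.8 CPM. Irf8 ran from CC079 (101, 122 and 148 CPM) to CC075 (146, 176 and 230.1 CPM). Irf4 was between 5.37 and 20.02 CPM in CC036 and between 1.48 and 7.86 CPM in CC001. With the pool as a block 1623 genes passed, and Irf1 (adjusted p 0.0346), Irf7 (0.0464) and Irf8 (0.01) with them, while Irf4 had 0.398. Without pool 9 only Irf1 (0.00138) and Irf8 (0.0363) passed, with Irf7 at 0.0714 and Irf4 at 0.155, and without pool 5 Irf8 had 0.0653. Irf4 also missed without pool 1 (0.127), pool 2 (0.0965), pool 4 (0.0873) or pool 8 (0.0907). Irf5 (0.0528), Irf2 (0.0587), Irf9 (0.0621) and Irf3 (0.703) did not pass among the 48 tumors. Irf5 passed with DESeq2 (0.0397) and without pool 2 (0.035) or pool 10 (0.00192), Irf2 with scaling by library size alone (0.0486), without cluster 5 (0.044) or without pool 7 (0.0382), and Irf9 without pool 7 (0.00536). Without cluster 5 the members passing were 4 with Irf2 among them, so Irf1, Irf4, Irf7 and Irf8 did not all pass there.

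In T/NK cells 2138 of 8458 genes (25.3%) passed over the hosts, and 3 of 8 members: Irf4 (adjusted p 0.00032), Irf5 (0.00158) and Irf7 (0.0184). Irf4 was at 87.2, 137 and 405 CPM in CC075 and at 25.7, 37.7 and 69.2 CPM in CC080, without overlap. Irf5 and Irf7 were both highest in CC079, Irf5 at 25.5, 38.1 and 45.9 CPM against 4.52, 10.8 and 12.4 CPM in CC075, and Irf7 at 24.3, 66.0 and 149 CPM against 15.7, 25.5 and 34.2 CPM in CC002. Irf5 of CC079 did not overlap that of CC075, whereas Irf7 of CC079 overlapped that of CC002. With the pool as a block (620 genes) Irf4 had an adjusted p of 7.5e-05 and Irf8 0.0294, while Irf5 (0.0974) and Irf7 (0.355) did not pass. Irf7 also missed without pool 1 (0.0633) or pool 2 (0.117).

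**Figure D4:**
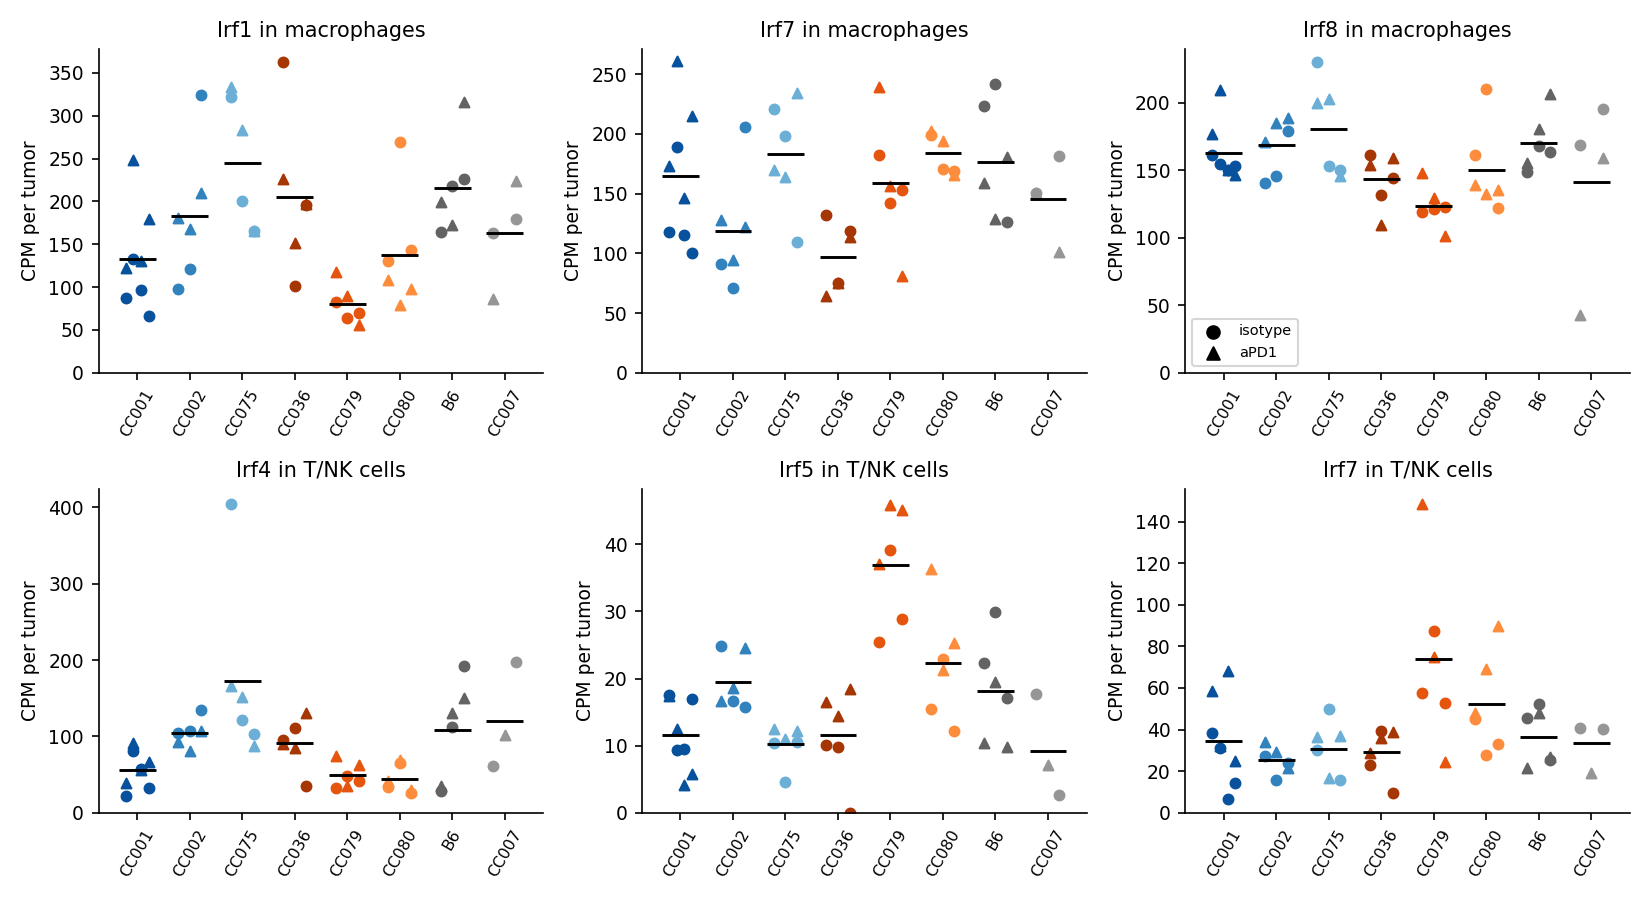
CPM per tumor (y axis, from 0) of Irf1, Irf7 and Irf8 in macrophages (upper row) and of Irf4, Irf5 and Irf7 in T/NK cells (lower row), by host strain; circles are isotype and triangles aPD1 tumors, and bars are strain means. CC079 has the lowest mean of macrophage Irf1 (80.3 CPM) and Irf8 (123.6 CPM) and the highest of Irf5 (37.0 CPM) and Irf7 (74.2 CPM) in T/NK cells.

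Since Irf1 and Irf8 are targets of IFN-γ signaling, the members' levels in macrophages were set against Ifng over all cells of the same tumor. T/NK cells held 98.94% of the 23617 Ifng UMIs. A level summed over all cells cannot tell more Ifng-expressing cells from more Ifng per cell. Ifng ran from 8.74 to 698 CPM (median 28.4) in responder isotype, 8.02 to 319 CPM (92.8) in responder aPD1, 2.66 to 219.5 CPM (16.1) in non-responder isotype and 0.741 to 55.7 CPM (14.2) in non-responder aPD1 tumors, overlapping in all groups.

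Over all 48 tumors, macrophage Irf1 followed Ifng with Pearson r = 0.846 and Spearman rho = 0.843, and Irf8 with 0.713 and 0.728, on log2(CPM + 1). Each of these had a permutation p of 1e-05, the smallest that 100000 resamples can give (4e-05 adjusted over the 8 members). The slopes were 0.276 for Irf1 and 0.123 for Irf8, in log2 units per log2 unit of Ifng. As examples, the CC079 aPD1 tumor of pool 5, with 1.11 CPM of Ifng, had 55.7 CPM of Irf1 and 101 CPM of Irf8. The CC075 isotype tumor of pool 9, with 267 CPM of Ifng, had 322 and 230.1 CPM. Tumors of more extreme Ifng differed less in Irf8. The CC079 aPD1 tumor of pool 2, with 0.741 CPM of Ifng, had 90.2 CPM of Irf1 and 129 CPM of Irf8. The CC002 isotype tumor of pool 12 (248 cells), with 698 CPM of Ifng, had 325 and 179 CPM. The correlation was positive within each group of class and treatment, with r from 0.705 to 0.925 for Irf1 and from 0.381 to 0.764 for Irf8 (adjusted permutation p under 0.05 in 2 of 4 groups for Irf1 and 1 of 4 for Irf8), and r was positive within pools 1 to 6 (0.811 and 0.729) and pools 7 to 12 (0.827 and 0.638). Within groups rho was 0.721 to 0.9 for Irf1, with an adjusted p under 0.05 in 1 of 4, and 0.2 (responder isotype) to 0.685 for Irf8, with 0 of 4. Without the 2 tumors farthest from the median of Ifng, r was 0.857 for Irf1 and 0.703 for Irf8. One of these, a CC007 aPD1 tumor of 53 cells, had 0 Ifng UMIs, which allows up to 33.8 CPM, and the other was a CC079 aPD1 tumor with 0.741 CPM.

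The other members followed Ifng less closely or not detectably. Irf7, itself an interferon-inducible gene, had r = 0.045 and rho = 0.044 (permutation p 0.764 and 0.766, adjusted 0.764 and 0.766). Irf2 had r = 0.287 and rho = 0.338 (adjusted permutation p 0.062 and 0.0516), which became 0.386 and 0.382 (0.0206 and 0.0243) without the 2 farthest tumors. Without tumors under 500 cells they were 0.489 and 0.456 (0.00173 and 0.0048). Within groups r of Irf2 was from 0.352 to 0.755, and it passed in non-responder isotype tumors alone (adjusted permutation p 0.0365). Irf5 had r and rho of -0.27 and -0.13 (0.0729 and 0.47). Irf9 (0.358, adjusted permutation p 0.0261), Irf3 (0.345, 0.0261) and Irf4 (0.339, 0.0295) passed on r over the 48 tumors. Without the 2 farthest tumors they had r = 0.144, 0.002 and 0.172, and none of them passed without those 2 tumors. Irf4 still had r = 0.811 within the 9 non-responder isotype tumors (adjusted permutation p 0.0344), which hold neither of those 2 tumors, and 0.065 to 0.564 within the other groups. The rho of Irf9, Irf3 and Irf4 over the 48 tumors was 0.309, 0.122 and 0.225 (adjusted permutation p 0.0661, 0.47 and 0.199). When only tumors under 500 cells were left out, Irf9 kept r = 0.346 and rho = 0.37 (adjusted permutation p 0.0401 and 0.0252). Irf3 and Irf4 then had r = 0.163 and 0.233 (0.375 and 0.199). Tumors of a strain share a genotype and those of a pool a library, so the 48 points are not fully independent, and genes outside the family were not set against Ifng.

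**Figure D5:**
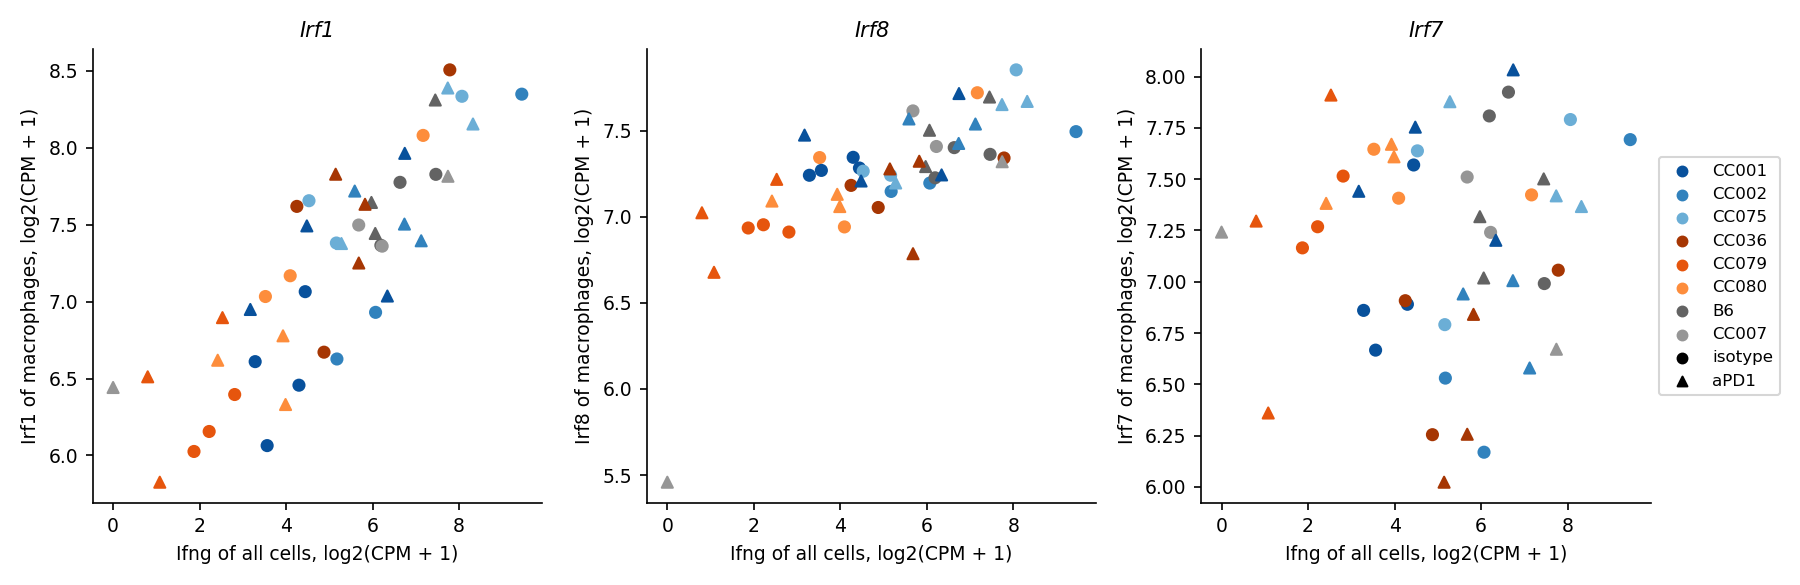
Macrophage Irf1, Irf8 and Irf7 (y axes) against Ifng over all cells of the tumor (x axis), both as log2(CPM + 1), for 48 tumors colored by host strain, with circles for isotype and triangles for aPD1. Irf1 (r = 0.846) and Irf8 (r = 0.713) rise with Ifng, Irf7 (r = 0.045) shows no trend, and the low Irf8 point at an Ifng of 0 is the CC007 tumor of 53 cells.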

How the data were processed

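The authors deposited whole-number UMI counts per gene and cell with the library, treatment, host strain, hashtag and cluster of each cell. The study's methods give Cell Ranger on GRCm38 with GENCODE annotation, hashtag assignment, removal of cells high in mitochondrial or ribosomal transcripts, and Seurat 5.0.1 clustering, while the cluster names used here come from marker genes. No doublet caller was run here, and 0 columns of per-sample values were left unused.

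Counts were summed per tumor and cell set with at least 20 cells. edgeR 4.0.16 (R 4.3.3, TMM scaling, filterByExpr, quasi-likelihood test) was fitted on all genes, with 4 groups of class and treatment or with strain and treatment, and Benjamini-Hochberg adjusted p under 0.05 passed. Values after ± are SE. DESeq2 1.42.0, another scaling, no count filter, other cell minimums, pool as a block, a term for pools 1 to 6 against 7 to 12, and left-out strains or pools were alternatives, and the script was tested on simulated data. Correlations used numpy 2.4.6 and scipy 1.17.1 with 100000 permutations, two-sided, as were the exact tests. Each class is made of 3 strains with several tumors each, so p-values of the class comparisons over tumors measure the spread between tumors and not between strains.

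The members and gene lists were chosen with earlier results of these data known. All 8 members are named, and of each list up to 3 passing genes in each direction with their values. The remaining passing IFN-γ and Irf1 targets are given by name alone. For the pattern over clusters the 3 genes of highest r are named, among those with at least 1000 UMIs. Isotype and aPD1 tumors of a strain in a pool share a library by the labels. Their deviations correlated with a median r of 0.208 over 19 pairs (-0.204 to 0.515, 14 over 0.1), and values with the pool as a block are given where they change a call. UMI totals per tumor (88816 to 17713491) limit precision in the rarer cells.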

Additional observations from a re-analysis of the deposited data

Results flagged for a closer look

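In 121 groups of 4 to 10 tumors, 16 had a highest or lowest tumor whose gap to the next was above Dixon's 95% critical value. For independent, normally distributed values chance flags about 1 in 20. Groups by class and groups by strain held the same tumors, so the 16 cannot be tested against that rate. The CC075 isotype tumor of pool 9 gave several of the 16. In its T/NK cells (286 cells) Irf4 was at 404.949 CPM, against 134.477 CPM in the next responder isotype tumor and 166.223 CPM in the next CC075 tumor. Irf1 there was at 270.401 CPM (next 134.301 CPM) and Irf8 at 357.922 CPM (next 241.268 CPM). Its macrophage Irf8 was 230.146 CPM (next 179.273 CPM). The CC075 aPD1 tumor of the same pool had 260.638 CPM of Irf1 in T/NK cells (next 152.767 CPM) and 13.352 CPM of Irf4 in macrophages (next 7.861 CPM).

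Macrophage Irf4, a gene of few counts there, stood apart in 4 more tumors. It was at 17.804 CPM in the CC036 aPD1 tumor of pool 9 (next 7.928 CPM) and 11.916 CPM in the CC075 isotype tumor of pool 10 (next 5.12 CPM). It was at 11.805 CPM in a B6 isotype tumor of pool 6 (next 5.959 CPM), and at 7.861 CPM in the CC001 aPD1 tumor of pool 12 (next CC001 tumor 3.837 CPM). The CC080 isotype tumor of pool 4 had 209.823 CPM of macrophage Irf8 (next non-responder isotype tumor 161.395 CPM) and 269.439 CPM of Irf1 (next CC080 tumor 142.765 CPM).

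Irf3 was low in macrophages of the CC001 aPD1 tumor of pool 2, at 19.505 CPM (next 24.127 CPM), and high in the 29 T/NK cells of the CC079 aPD1 tumor of pool 1, at 136.166 CPM (next 49.291 CPM). Irf5 in T/NK cells of the CC075 isotype tumor of pool 10 was at 4.516 CPM (next CC075 tumor 10.45 CPM).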

How the results depend on the processing

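Over 54 member values and 804 alternatives, 734 kept direction and side of the threshold, 28 lost it, 27 gained it and 15 changed sign. None of the 15 had an adjusted p under 0.05 in the alternative (smallest 0.578). They include correlations of Irf3, Irf4 and Irf9 with Ifng that had passed on r over all 48 tumors (adjusted permutation p 0.0261, 0.0295 and 0.0261). Rarer cells, low Irf4 counts in macrophages and 3 strains a class limit these comparisons. Leaving out the pool 9 CC075 isotype tumor, cluster 5 or tumors with a shared identifier was chosen after seeing the data. CTL cluster 3 without CC080 was not run. Unless another value shows it, the cause was not tested.

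For macrophages between classes, 331 genes passed in pools 1 to 6 and 332 in pools 7 to 12 alone (fewer tumors) and 151 outside clusters 2, 5 and 26, each with 0 members, and a term for these blocks of pools gave 2 members. Leaving out a strain gave 0 (without CC079) to 2 members (without CC075). Irf2 ranged from -0.0281 (without CC075) to 0.15 and Irf7 from -0.11 (without CC036) to 0.33, and Irf7 was -0.29 in pools 1 to 6. In the aPD1 comparisons 2 genes passed in responders with the replicate block and 1 in non-responders with DESeq2, and in the interaction 1 with DESeq2 and 1 with the block. In non-responders Irf7 was 0.046 in pools 1 to 6 and ranged from -0.12 to 0.0195 (without CC036), and Irf8 from -0.19 to 0.0262 (without CC080).

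For T/NK cells between classes, 290 genes passed with DESeq2, 278 without the filter, 301 with the block, 296 with the term for pools 1 to 6 against 7 to 12 and 42 in pools 7 to 12. Members passing were 1 with DESeq2, 1 without the filter, 2 with the block, 1 with the term for pools 1 to 6 against 7 to 12 and 1 in pools 1 to 6. Leaving out a strain gave 100 (without CC002) to 316 genes (without CC036) and 0 to 3 members (without CC036). For aPD1 in responders 5 genes passed without the filter and 0 to 1 (without CC001) with a strain left out, and Irf4 ranged from -0.53 to 0.0456 (without CC075) and was 0.20 without the pool 9 tumor.

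Without the count filter 132 genes passed in cDC1, 97 in migDC (with 1 member, Irf7), 80 in regulatory T cells and 59 in CTL cluster 3. DESeq2 called 8 in regulatory T cells and 35 in CTL cluster 3, and the block 9 and 12. With a strain left out, 12 (without CC080) to 30 genes (without CC001) passed in cDC1, 5 (without CC079) to 27 in migDC with 0 to 1 members (without CC036), 4 to 14 (without CC036) in regulatory T cells, and 15 (without CC002) to 88 (without CC001) in CTL cluster 3. Irf1 in cDC1 was -0.0496 with tumors of at least 10 cells.

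Over the hosts the block gave 1623 genes in macrophages and 620 in T/NK cells, and it changed no call beyond those given here and in the report. With a pool left out, 2 (without pool 9) to 6 members (without pool 7) passed in macrophages, and 1260 (without pool 9) to 2859 genes (without pool 6) in T/NK cells. For the relation with Ifng, 5 members passed on r over all tumors, 5 without the pool 9 CC075 isotype tumor, 4 in pools 1 to 6 (Irf1, Irf3, Irf8 and Irf9), 4 without tumors under 500 cells (Irf1, Irf2, Irf8 and Irf9), 2 with Ifng of T/NK cells, 2 on log2(CPM + 10), 3 without the 2 farthest tumors (Irf1, Irf2 and Irf8) and 2 in pools 7 to 12. Irf3 had r = -0.158 with Ifng of T/NK cells, and Irf7 -0.019 without tumors under 500 cells and -0.025 in pools 1 to 6. In pools 7 to 12 Irf3 had -0.033, Irf4 -0.035 and Irf9 -0.035.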

Other observations

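B6 and CC007 hosts stood in no class. In macrophages of B6 hosts (6 tumors), Irf1 was at 163.9, 208 and 316 CPM (lowest, median, highest), Irf7 at 126, 169 and 242 CPM and Irf8 at 149, 166 and 206 CPM. CC007 hosts (4 tumors) had 85.9, 171 and 224 CPM of Irf1 and 43.0, 164 and 195 CPM of Irf8, the lowest of both in the tumor of 53 cells. In T/NK cells Irf4 was at 28.1, 121 and 192 CPM in B6 hosts and at 60.8, 102 and 197 CPM in 3 CC007 tumors.

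In cDC2, a cell type not compared between classes, Irf4 had a median of 99.5 CPM over 5 CC075 tumors (0 to 111 CPM) and of 35.2 CPM over 5 CC002 tumors (28.1 to 42.8 CPM). These strains overlapped through the 1 CC075 tumor at 0. Irf8 in cDC2 had a median of 116 CPM over 5 B6 tumors (65.9 to 171 CPM) and of 66.1 CPM over 6 CC079 tumors (38.8 to 84.1 CPM).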
